A study of Mus musculus with 18 samples.

Results

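The Vmn1r genes encode the vomeronasal type 1 receptors. The set was every probe of the bead array whose annotated gene symbol starts with Vmn1r, which gave 129 genes of the 19057 named on the array, read by 157 of its 45281 probes. It was measured in germinal vesicle oocytes of the mouse, grown oocytes that have not yet resumed meiosis. Each array held RNA of a pool of about 100 denuded oocytes taken from at least 2 females, which were 4 weeks old, of the MF1 outbred albino stock, and 45 to 48 hours past an injection of PMSG. Every pool was XX, and the 6 genotypes had 3 pools each. Zfy2_Eif2s3y oocytes carried a single-copy Zfy2 transgene and, in a proportion of the cells, a multi-copy Eif2s3y transgene, and the labels call this group contaminated. Zfy2 oocytes carried a single-copy Zfy2 transgene, Zfy1_hi oocytes a multi-copy and Zfy1_lo oocytes a single-copy Zfy1 transgene, Zfy2_nf oocytes a Zfy2 transgene that is not functional, and XX oocytes no transgene. Zfy1 and Zfy2 are Y-linked zinc finger genes that XX mice lack. The promoter and the insertion site of each transgene are not given in the sources used here.

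V1R proteins are G protein coupled receptors of the sensory neurons in the apical layer of the vomeronasal organ. Each such neuron expresses very few of the receptors and signals through the G protein subunit Gnai2 and the channel Trpc2, and the receptors are known for detecting pheromones and other social odours. The genes lie in tandem arrays of similar copies, most with an uninterrupted coding exon. The oocyte is not a tissue in which they are known to act.

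The 3 members on which the results turn, Vmn1r93, Vmn1r123 and Vmn1r243, lie on chromosome 7 in one tandem array, and the promoter windows of RefSeq (GRCm38.p6) are shown to display how alike the 3 genes are just before their coding sequence. A window holds 250 bases before and 50 after the annotated gene start, and in each of the 4 below that start is an ATG at base 251, so the windows surround the start of the coding sequence and not a mapped transcription start. The Vmn1r93 window is chr7:20139039-20139338 on the minus strand, that of Vmn1r123 is chr7:21161935-21162234 on the plus strand and that of Vmn1r243 is chr7:20334016-20334315 on the minus strand. The window of Vmn1r100, chr7:20417692-20417991 on the plus strand, belongs to a gene of the same array whose probe was detected on no array. Capitals mark the runs of at least 15 bases that the windows of Vmn1r93, Vmn1r123 and Vmn1r243 have in common.
Vmn1r93: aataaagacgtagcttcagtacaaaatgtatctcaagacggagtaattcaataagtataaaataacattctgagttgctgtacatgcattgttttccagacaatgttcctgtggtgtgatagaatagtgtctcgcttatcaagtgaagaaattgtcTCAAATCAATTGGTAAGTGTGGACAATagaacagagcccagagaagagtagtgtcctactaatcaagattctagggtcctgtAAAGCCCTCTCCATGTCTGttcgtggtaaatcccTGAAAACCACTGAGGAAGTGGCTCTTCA
Vmn1r123: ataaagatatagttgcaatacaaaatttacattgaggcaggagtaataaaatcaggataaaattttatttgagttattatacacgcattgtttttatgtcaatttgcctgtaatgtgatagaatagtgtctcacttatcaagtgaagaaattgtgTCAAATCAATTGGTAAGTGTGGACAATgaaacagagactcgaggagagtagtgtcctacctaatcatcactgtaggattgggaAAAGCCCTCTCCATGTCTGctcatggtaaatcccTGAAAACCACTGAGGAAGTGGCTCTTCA
Vmn1r243: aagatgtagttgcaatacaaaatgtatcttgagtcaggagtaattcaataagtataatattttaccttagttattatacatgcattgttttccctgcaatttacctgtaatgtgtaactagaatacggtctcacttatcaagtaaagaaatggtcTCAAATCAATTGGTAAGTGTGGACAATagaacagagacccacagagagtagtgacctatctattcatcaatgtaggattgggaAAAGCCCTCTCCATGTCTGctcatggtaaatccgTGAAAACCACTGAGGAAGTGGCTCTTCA
Vmn1r100: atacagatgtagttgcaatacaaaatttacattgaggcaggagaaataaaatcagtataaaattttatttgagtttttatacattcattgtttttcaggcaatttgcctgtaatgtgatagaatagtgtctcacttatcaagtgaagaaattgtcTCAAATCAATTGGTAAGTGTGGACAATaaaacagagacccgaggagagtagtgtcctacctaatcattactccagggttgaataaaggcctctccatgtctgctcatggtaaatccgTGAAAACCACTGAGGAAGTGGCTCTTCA

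The common runs covered 74 of 300 bases in each of the 3 windows, and 55 bases of the Vmn1r100 window. By global alignment the Vmn1r123 and Vmn1r243 windows were identical at 87.0% of the bases, those of Vmn1r93 and Vmn1r243 at 83.7% and those of Vmn1r93 and Vmn1r123 at 83.0%. The median identity of each with the other 205 Vmn1r windows was 54.3 to 54.7%. The window of the undetected Vmn1r100 was 92.7% identical to that of Vmn1r123, closer than either of the other members. Some copies had the same letters throughout: the Vmn1r93 window matched those of Vmn1r114, Vmn1r126 and Vmn1r250, the Vmn1r123 window that of Vmn1r160, and the Vmn1r243 window those of Vmn1r119 and Vmn1r253. The probe sequences were not used here, so whether a probe reads a single gene or several such copies cannot be told, and each value below is that of a probe. The letters AGGCCT, which read the same on both strands and are the core of the sequence known to be bound by the related factor Zfx, were in none of the 3 windows and in the Vmn1r100 window. They occurred in 10.3% of all 32851 promoter windows and in 3.88% of the 206 Vmn1r windows. A window was found for 113 of the 129 genes.

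Few members were measurable. A probe was kept where its detection p-value, which ranks its signal among negative control beads, was under 0.05 on at least 3 of 18 arrays. By that rule 18 of 157 Vmn1r probes passed, which is 11.5%, against 52.9% of all probes, and they represent 17 genes. On a single array 4 to 16 Vmn1r probes were detected, which is 2.55 to 10.2% with a median of 5.10%, close to the share that a threshold of 0.05 lets through from background alone. Of all probes 40.1 to 44.8% were detected on an array.

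**Figure D1:**
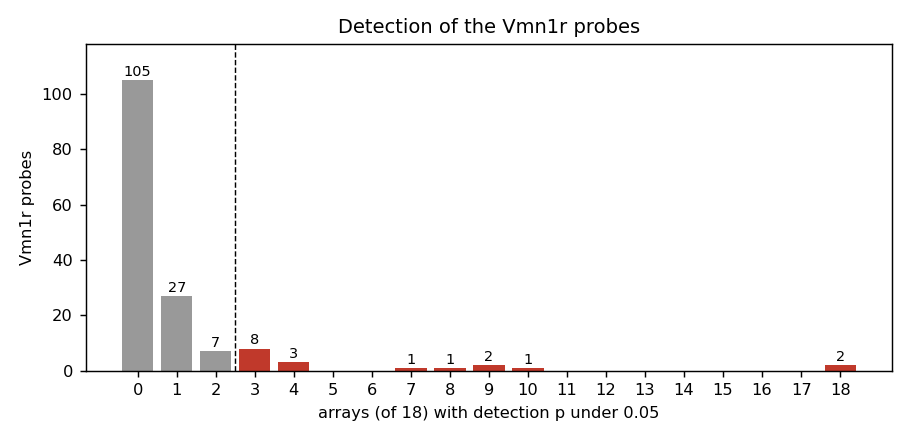
Number of Vmn1r probes (vertical axis) detected on 0 to 18 arrays (horizontal axis), with the probes kept for the tests in red to the right of the dashed line. Most probes, 105 of 157, were detected on 0 arrays, and 2 probes were detected on all 18.

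Of the probes, 105 were detected on 0 arrays, 27 on 1 and 7 on 2. Just outside the rule, on 2 arrays, were probes of Vmn1r4, Vmn1r15, Vmn1r16, Vmn1r41, Vmn1r65, Vmn1r69 and Vmn1r177. Just inside, on 3 arrays, were probes of Vmn1r28, Vmn1r45, Vmn1r63, Vmn1r179, Vmn1r181, Vmn1r216, Vmn1r229 and Vmn1r235, and on 4 arrays those of Vmn1r66, Vmn1r200 and a further Vmn1r45 probe. The probes of Vmn1r243, Vmn1r50, Vmn1r62, Vmn1r212 and Vmn1r197 were detected on 7 to 10 arrays, and those of Vmn1r93 and Vmn1r123 on all 18. The 139 probes that did not pass had normalized log2 intensities of 4.16 to 5.37 with a median of 4.43. The 15 kept probes other than Vmn1r93, Vmn1r123 and Vmn1r243 lay at 4.29 to 5.62 with a median of 4.66, so their highest values exceeded those of the probes that did not pass by little.

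The members sit on 4 chromosomes, and detection was low on each. Of 50 probes on chromosome 7, 8 passed, of 57 on chromosome 6, 4, of 36 on chromosome 13, 4, and of 14 on chromosome 17, 2. Other families of chemosensory receptors had shares of the same order. Of the vomeronasal type 2 receptors (Vmn2r) 11.7% of 60 probes passed, of the odorant receptors 12.7% of 1287, of the trace amine receptors 22.7% of 22, of the taste receptors 7.69% of 39 and of the formyl peptide receptors 0 of 6.

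**Figure D2:**
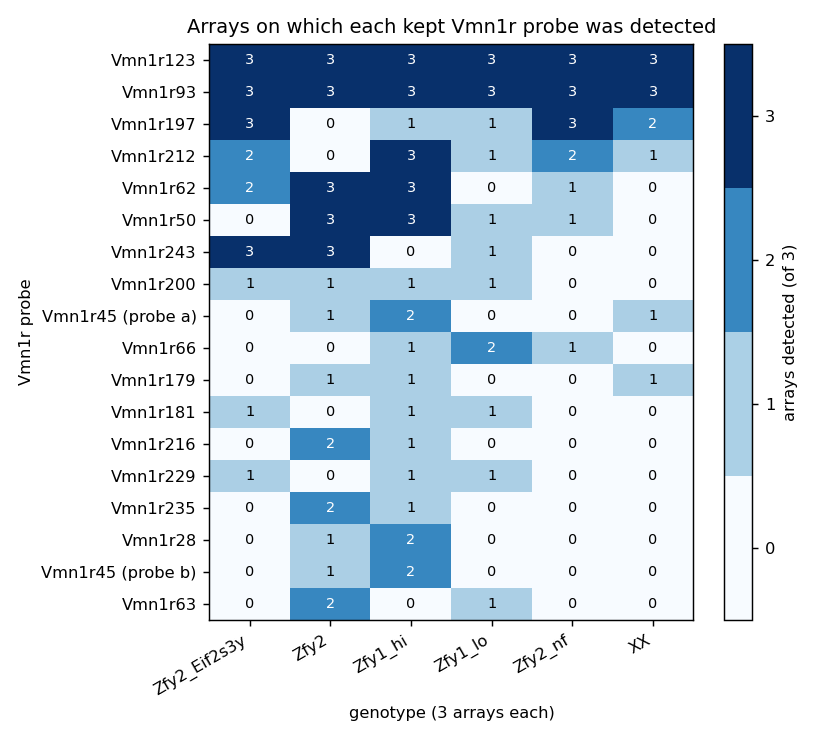
Arrays, of 3 for each genotype (columns), on which each of the 18 kept Vmn1r probes (rows) was detected. Vmn1r123 and Vmn1r93 have 3 in every genotype, Vmn1r243 has 3 in Zfy2_Eif2s3y and in Zfy2, 1 in Zfy1_lo and 0 in Zfy1_hi, Zfy2_nf and XX.

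How many of the faint members were detected went with the batch of the arrays. Zfy2 and Zfy1_hi arrays formed batch 2, on slide 3. Zfy2_Eif2s3y, Zfy1_lo, Zfy2_nf and XX arrays formed batch 1, in which all 3 Zfy2_Eif2s3y arrays and 1 array of each other genotype were on slide 2 and the rest on slide 1. The 15 faint kept probes gave a detection in 44.4% of 90 probe and array pairs of batch 2, against 17.8% of 180 pairs of batch 1. These probes were kept by the same detections, and some passed through batch 2 arrays alone, so this contrast is in part built in. Of all 154 Vmn1r probes other than the 3 of Vmn1r93, Vmn1r123 and Vmn1r243, 5 to 14 were detected on an array of batch 2 (median 8). On an array of batch 1 it was 2 to 8 (median 4.5). Within batch 1 the share was 17.8% on slide 2 and 17.8% on slide 1. Over all probes the share was 40.1 to 44.1% on the arrays of batch 2 and 41.0 to 44.8% on those of batch 1. Single probes differed in this. Vmn1r50 was detected on 6 of 6 arrays of batch 2 and 2 of 12 of batch 1, and Vmn1r62 on 6 and 3. Vmn1r197 went the other way, with 1 and 9, and Vmn1r212 had 3 and 6. The median unnormalized intensity over all probes was 68.9 to 75.1 on the arrays of batch 2 and 89.7 to 115 on those of batch 1, and the part of this difference in the detections was not tested.

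The labels were first checked on the transgenes. The Zfy2 probe was detected on all 3 arrays of Zfy2_Eif2s3y (log2 intensity 5.91 ± 0.37, SD, n = 3) and of Zfy2 (5.88 ± 0.30), and on none of Zfy2_nf and XX. It was also detected in Zfy1_hi (7.02 ± 0.19) and Zfy1_lo (5.39 ± 0.23), so it does not tell the Zfy2 and the Zfy1 transgene apart. A Zfy1 probe at 6.18 ± 0.09 in Zfy1_hi and 5.48 ± 0.25 in Zfy1_lo was detected on no Zfy2, Zfy2_nf or XX array and on 1 Zfy2_Eif2s3y array. A further Zfy1 probe was detected on all 18 arrays, XX included. An Eif2s3y probe was detected on the 3 Zfy2_Eif2s3y arrays (6.15 ± 0.48) and on none of the others, while another was at 4.58 ± 0.14 and detected on 0 of those 3 arrays, but on all 3 of Zfy2 and of Zfy1_hi and on 2 of Zfy2_nf. All 12 oocyte markers on the array, among them Zp3, Gdf9 and Bmp15, were detected on all 18 arrays.

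The first comparison set Zfy2_Eif2s3y against the mean of the groups with no functional transgene, Zfy2_nf and XX, within batch 1. It bears on what a Zfy2 transgene changes in these receptors' transcripts, but the Zfy2 and the Eif2s3y transgene cannot be told apart in it. Vmn1r93, Vmn1r123 and Vmn1r243 were higher in Zfy2_Eif2s3y, and 0 members were lower. Calls were made at a Benjamini-Hochberg adjusted p under 0.05 in limma over all 23951 kept probes, of which 9.14% were called, 4.19% as higher and 4.95% as lower. The 3 called members are 16.7% of the 18 kept. With every probe of the array tested and no filter, the same 3 probes were the called ones of all 157, against 4.52% of all probes.

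Vmn1r93 had log2 intensities of 8.47, 8.27 and 8.18 on the Zfy2_Eif2s3y arrays, against 6.04, 6.17 and 6.66 on the Zfy2_nf arrays and 5.98, 5.62 and 5.19 on the XX arrays. Each Zfy2_Eif2s3y array was above every control array. The difference was 2.36 (SE 0.263, adjusted p = 3.64e-05 in limma), which is 5.15-fold. In unnormalized intensity the Zfy2_Eif2s3y arrays read 405, 365 and 362, against 145, 159 and 172 in Zfy2_nf and 140, 141 and 115 in XX. Another Vmn1r93 probe was detected on 0 of 18 arrays, at 4.27 to 4.60, so the change rests on 1 of the 2 probes of the gene.

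Vmn1r123 had 9.79, 9.69 and 9.60 on the Zfy2_Eif2s3y arrays, against 7.66, 7.54 and 8.11 on the Zfy2_nf arrays and 7.85, 7.60 and 7.72 on the XX arrays. The groups again did not overlap. The difference was 1.95 (SE 0.230, adjusted p = 6.18e-05 in limma), or 3.85-fold.

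Vmn1r243 had 6.04, 6.51 and 6.27 on the Zfy2_Eif2s3y arrays, against 4.82, 4.51 and 4.59 on the Zfy2_nf arrays and 4.79, 4.56 and 4.79 on the XX arrays. It was detected on all 3 Zfy2_Eif2s3y arrays and on none of the 6 control arrays. Its level there is therefore only a bound, and it was at least 2.68-fold higher (log2 difference as measured 1.60, SE 0.167, adjusted p = 2.05e-05 in limma). The bound sets the mean of the Zfy2_Eif2s3y arrays against the mean, over the control arrays, of the lowest signal among detected probes or the probe's own where that was higher. The probe passed the detection rule mainly through the arrays of Zfy2_Eif2s3y and Zfy2, so a difference followed in part from its passing. Without a filter its adjusted p was 5.50e-05.

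These values were also read by slide, and a slide effect itself was not tested. Each of Zfy1_lo, Zfy2_nf and XX had a single array on slide 2, and for Vmn1r93 and Vmn1r123 that array was the highest of its group in all 3 groups. For Vmn1r93 it exceeded the mean of the 2 slide 1 arrays by 0.88 in Zfy1_lo, 0.55 in Zfy2_nf and 0.57 in XX, and for Vmn1r123 by 0.82, 0.51 and 0.19. For Vmn1r243 the slide 2 array was higher by 0.74 in Zfy1_lo, 0.12 in XX and lower in Zfy2_nf (-0.07). With slide as a fixed block the differences of Zfy2_Eif2s3y from the controls were 1.92 for Vmn1r93, 1.61 for Vmn1r123 and 1.42 for Vmn1r243 (adjusted p = 0.000532, 0.00137 and 0.000601 in limma). With this block all 3 stayed called. On slide 2 alone, with 1 Zfy2_nf and 1 XX array, the differences were 1.99, 1.71 and 1.58, and no call is given. The size moved with background correction, and quantile normalization without it gave 1.56 for Vmn1r93, 1.66 for Vmn1r123 and 0.70 for Vmn1r243, and all 3 were called.

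**Figure D3:**
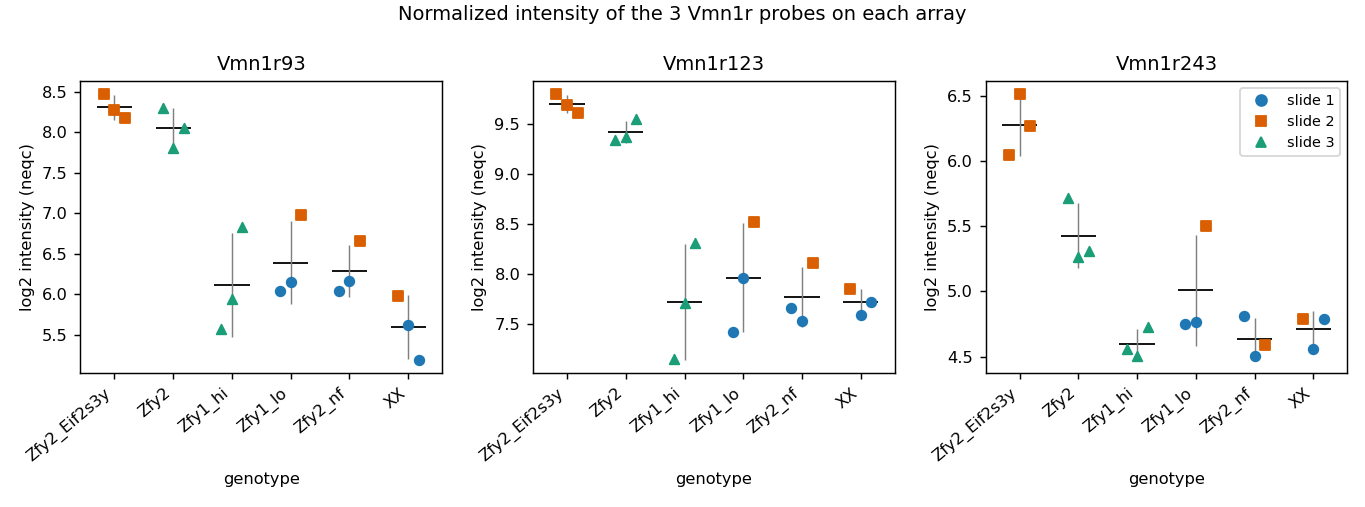
Normalized log2 intensity (vertical axis) of Vmn1r93, Vmn1r123 and Vmn1r243 on each array, by genotype (horizontal axis), with the group mean as a bar and 1 SD as a line, and the slide as colour and shape. For Vmn1r93 and Vmn1r123 all 6 arrays of Zfy2_Eif2s3y and Zfy2 lie above the 12 others, while for Vmn1r243 a Zfy1_lo array at 5.50 lies among the Zfy2 arrays.

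The other 15 kept members changed by -0.22 to 0.31 in this comparison, with SE of 0.0934 to 0.228, and the smallest adjusted p among them was 0.173, for Vmn1r181 (log2 0.31). The median difference was 0.12 over the 18 kept members and -0.01 over all kept probes. Vmn1r66 was at 4.47 in Zfy2_Eif2s3y and 4.69 in the controls, and Vmn1r50 at 4.52 and 4.71.

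The second comparison, Zfy2 against Zfy1_hi, was made within batch 2 and shares no array or slide with the first. It sets a single-copy Zfy2 transgene against a multi-copy Zfy1 transgene. Of all kept probes 5.66% were called, 2.42% as higher and 3.24% as lower, and of the 18 kept members the 3 called, all higher, were again Vmn1r93, Vmn1r123 and Vmn1r243. Being higher in both comparisons held for 324 kept probes, or 1.35% of all, and for 3 of the 18 kept members. With every probe tested and no filter, the same 3 were called of 157, against 2.45% of all probes. The 324 probes were 32.3% of the probes higher in the first comparison and 56.0% of those higher in the second.

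Vmn1r93 had 8.30, 7.81 and 8.06 on the Zfy2 arrays, against 5.57, 5.95 and 6.83 on the Zfy1_hi arrays. The difference was 1.94 (SE 0.303, adjusted p = 0.00113 in limma), or 3.84-fold. Vmn1r123 had 9.34, 9.37 and 9.55 on the Zfy2 arrays, against 7.16, 7.71 and 8.31 on the Zfy1_hi arrays. Both genes separated the groups, and both varied more among the Zfy1_hi arrays, where the SD was 0.65 for Vmn1r93 and 0.58 for Vmn1r123, than among the Zfy2 arrays, where it was 0.24 and 0.11. For Vmn1r123 the difference was 1.69 (SE 0.265, adjusted p = 0.00118 in limma), or 3.23-fold.

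Vmn1r243 had 5.71, 5.26 and 5.31 on the Zfy2 arrays, against 4.56, 4.50 and 4.73 on the Zfy1_hi arrays. It was detected on 3 and 0 of these arrays and was at least 1.51-fold higher in Zfy2 (measured difference 0.83, SE 0.193, adjusted p = 0.0182 in limma). This call rests on single arrays. Without the first Zfy2 array the adjusted p was 0.0845, without the first Zfy1_hi array 0.0621 and without the second 0.0647. On slide 3 the Zfy2 arrays all sat above the Zfy1_hi arrays, so genotype and position cannot be told apart there. Position on the slide (upper or lower) was also added to the model over all slides. That term is set by slides 1 and 2 only, so it cannot separate position from genotype on slide 3. The differences were then 1.81 for Vmn1r93, 1.77 for Vmn1r123 and 0.99 for Vmn1r243 (adjusted p = 0.0241, 0.0134 and 0.0477 in limma). Without background correction they were 1.27, 1.41 and 0.34, and called.

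**Figure D4:**
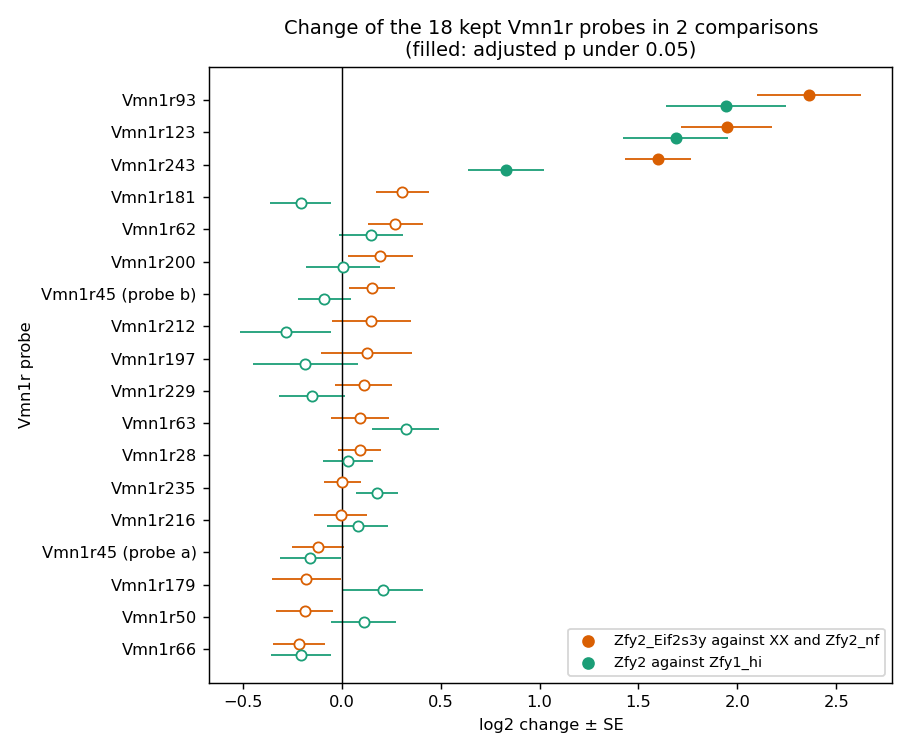
Log2 change with its SE (horizontal axis) of the 18 kept Vmn1r probes (rows) for Zfy2_Eif2s3y against XX and Zfy2_nf (orange) and for Zfy2 against Zfy1_hi (green), filled where the adjusted p was under 0.05. Vmn1r93, Vmn1r123 and Vmn1r243 lie apart at 0.83 to 2.36, and the other 15 lie between -0.28 and 0.32.

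The 15 other members differed by -0.28 (Vmn1r212) to 0.32 (Vmn1r63) between Zfy2 and Zfy1_hi, with a smallest adjusted p of 0.327. Whether the effects of the 2 comparisons differ in size was tested as a contrast of its own, in which 0.071% of all kept probes were called. Of the 18 members 0 were called, with 2, Vmn1r243 and Vmn1r181, at an unadjusted p under 0.05. Of all 23951 kept probes, 1574 were under that unadjusted threshold. The difference of effects was 0.42 (SE 0.401) for Vmn1r93 and 0.26 (SE 0.351) for Vmn1r123. For Vmn1r243 the difference as measured was 0.77 (SE 0.256, adjusted p = 0.552 in limma). Its size is not known, since the probe was detected on no control or Zfy1_hi array. The comparisons also differ in the Eif2s3y transgene, present only in the first, and in their controls, which carried no functional transgene in the first and multi-copy Zfy1 in the second.

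Zfy2_Eif2s3y was set against Zfy1_lo as well, within batch 1, with the Zfy2_Eif2s3y arrays shared with the first comparison. Of all kept probes 5.55% were called, 2.42% as higher and 3.14% as lower, and without a filter 2.47% of all probes. Called members were Vmn1r93 (1.92, SE 0.303), Vmn1r123 (1.73, SE 0.265) and Vmn1r243 (1.27, SE 0.193), all higher (adjusted p = 0.00144, 0.00113 and 0.00108 in limma). The Zfy1_lo arrays read 6.04, 6.15 and 6.98 for Vmn1r93, 7.42, 7.96 and 8.52 for Vmn1r123 and 4.75, 4.77 and 5.50 for Vmn1r243. The highest in each case was the slide 2 array, and all lay below the Zfy2_Eif2s3y arrays. Vmn1r243 was detected on 1 of the 3 Zfy1_lo arrays, so its difference of 1.27 is as measured. With slide as a fixed block the differences were 1.47, 1.39 and 1.09 and all stayed called.

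The controls were compared with one another to give the background of these differences. Between Zfy2_nf and XX 0.0292% of the kept probes were called, and between Zfy1_lo and XX 0.00418%. Of the 18 members limma called 0 in both, with 2 members at an unadjusted p under 0.05 in Zfy2_nf and 1 in Zfy1_lo. Of all 23951 kept probes, 2104 and 1740 were under that unadjusted threshold. Vmn1r93 was among the members under it, with differences from XX of 0.69 (SE 0.303, adjusted p = 0.529 in limma) in Zfy2_nf and 0.79 (SE 0.303, adjusted p = 0.576 in limma) in Zfy1_lo. Its lowest arrays were 6.04 in both Zfy1_lo and Zfy2_nf, above the highest XX array at 5.98. The remaining member was a Vmn1r45 probe, at 4.44 in Zfy2_nf and 4.82 in XX (difference -0.38, adjusted p = 0.480 in limma). Vmn1r123 differed from XX by 0.05 in Zfy2_nf and 0.24 in Zfy1_lo, and Vmn1r243 by -0.08 and 0.29. These comparisons share the XX arrays.

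Comparisons with XX across batches are given for completeness, since genotype and batch cannot be told apart in them. Of all kept probes 22.4% were called between Zfy2 and XX, 11.1% as higher and 11.3% as lower. Between Zfy1_hi and XX 10.4% were called, 4.89% as higher and 5.47% as lower. In Zfy2 5 of 18 members were higher, a share of 27.8%. They were Vmn1r93 (2.46, SE 0.303, adjusted p = 6.48e-05), Vmn1r123 (1.69, SE 0.265, adjusted p = 0.000405), Vmn1r243 (at least 1.48-fold, adjusted p = 0.0148), Vmn1r62 (at least 1.36-fold, adjusted p = 0.00726) and Vmn1r235 (at least 1.04-fold, adjusted p = 0.0234), all by limma. In Zfy1_hi only Vmn1r62 was called (at least 1.22-fold, adjusted p = 0.0470 in limma), while Vmn1r93 differed by 0.52 (adjusted p = 0.305), Vmn1r123 by 0.00 and Vmn1r243 by -0.12. Vmn1r62 had 5.53, 5.16 and 5.22 on the Zfy2 arrays and 5.15, 5.13 and 5.19 on the Zfy1_hi arrays, against 4.69, 4.56 and 4.62 on the XX arrays, and within batch 2 Zfy2 and Zfy1_hi differed by 0.15 (SE 0.162, adjusted p = 0.711 in limma). Vmn1r235 had 4.96, 5.03 and 4.76 on the Zfy2 arrays, against 4.48, 4.62 and 4.56 on the XX arrays. The call of Vmn1r62 in Zfy1_hi was lost with any single array of either group left out. Vmn1r235 passed the detection rule through 2 Zfy2 arrays and 1 Zfy1_hi array, all in batch 2, so its difference from XX followed in part from its passing. Leaving aside the fits without an array, its call held in 5 of 9 alternatives. It was lost with the deposited series matrix (adjusted p = 0.0845 in limma), without background correction (0.0792), with an offset of 50 (0.0784), and with the arrays of the 2 groups alone (0.107). It was also lost without the first XX array (0.0742), and without the first or the second Zfy2 array the probe was no longer kept. The call of Vmn1r243 in Zfy2 was lost without the first Zfy2 array (0.0727) or the second XX array (0.0598). Without a filter 11 of 157 probes were called in Zfy2, against 12.2% of all probes, and 1 of the 11 was detected on no array. The probe called in Zfy1_hi was then that of Vmn1r204 in place of Vmn1r62, against 6.02% of all probes.

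Over all 18 arrays Vmn1r93 lay at 7.81 to 8.47 on the 6 arrays with a functional Zfy2 transgene and at 5.19 to 6.98 on the 12 without. Vmn1r123 lay at 9.34 to 9.79 and at 7.16 to 8.52. Vmn1r243 lay at 5.26 to 6.51 and at 4.50 to 5.50, so the ranges overlapped by the slide 2 array of Zfy1_lo. By mean, Vmn1r93 ran from Zfy2_Eif2s3y (8.31 ± 0.15, SD, n = 3 in each group) and Zfy2 (8.06 ± 0.24) to Zfy1_lo (6.39 ± 0.51), Zfy2_nf (6.29 ± 0.33), Zfy1_hi (6.11 ± 0.65) and XX (5.60 ± 0.39), and of the last 4, Zfy1_lo, Zfy2_nf and Zfy1_hi were not called against XX. Zfy2_Eif2s3y was not tested against Zfy2. In pools of whole cells, a change in the number of oocytes with the transcript and a change in the transcript per oocyte cannot be told apart.

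The 3 responding members lie in the same stretch of chromosome 7, though not side by side, and most Vmn1r genes of that stretch have no probe. In RefSeq's gene order on chromosome 7 (GRCm38.p6) they lie between Nlrp9b and Nlrp4e, in an interval of 147 genes of which 81 are named Vmn1r, 70 of them protein coding and 11 pseudogenes. Only 4 of these Vmn1r genes have a probe, Vmn1r93, Vmn1r243, Vmn1r100 and Vmn1r123 in that order, and Vmn1r100 was detected on 0 arrays. Of the 45 other Vmn1r probes of chromosome 7, 5 were kept (Vmn1r62, Vmn1r63, Vmn1r66, Vmn1r179 and Vmn1r181), none of which was called in either within-batch comparison of a Zfy2 transgene. The interval also holds the predicted genes Gm5891 and Gm4567, which were singled out after their values were seen. Gm5891 was higher by 1.40 (SE 0.178) in Zfy2_Eif2s3y than in the controls and by 1.45 (SE 0.205) in Zfy2 than in Zfy1_hi. Gm4567 has 4 probes, which differed by 0.17, 0.88, 2.42 and 1.24 in the first comparison, 3 of them called, and by 0.78, 1.62, 2.21 and 1.95 in the second, all called. The interval was drawn around the 3 responding members, so the number of its probes that were higher is no result.

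**Figure D5:**
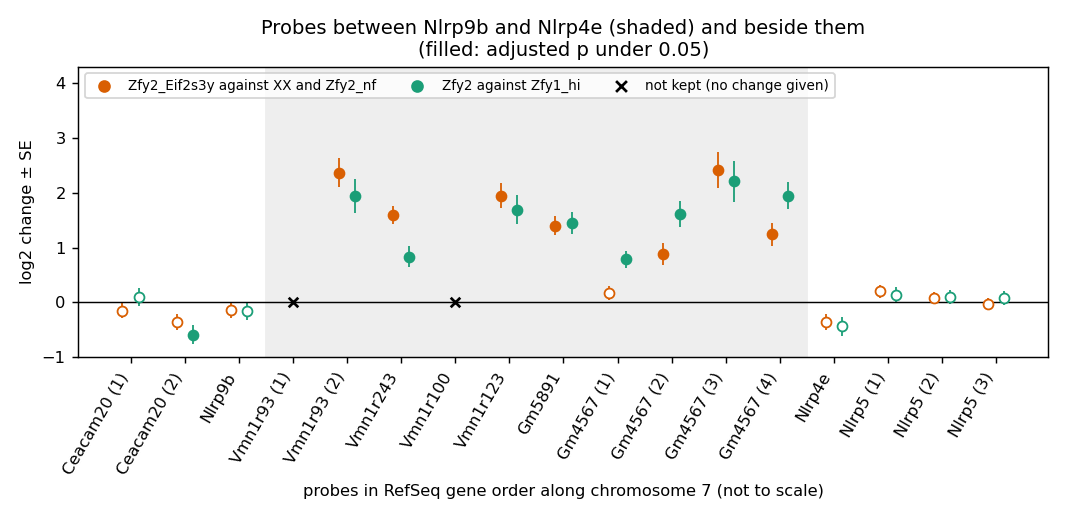
Log2 change with its SE (vertical axis) of each probe between Nlrp9b and Nlrp4e (shaded) and of the genes beside them, in RefSeq order along chromosome 7 (horizontal axis, not to scale), for Zfy2_Eif2s3y against XX and Zfy2_nf (orange) and Zfy2 against Zfy1_hi (green), filled where the adjusted p was under 0.05. The kept probes inside the interval lie at 0.17 to 2.42, and those of Ceacam20, Nlrp9b, Nlrp4e and Nlrp5 lie at -0.59 to 0.20. The interval was drawn around Vmn1r93, Vmn1r123 and Vmn1r243, so the contrast of its probes with those beside it is no result.

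The genes at the edges were read as well. Nlrp9b differed by -0.15 and -0.16 in the 2 comparisons and Nlrp4e by -0.36 and -0.43, and none of these was called. Nlrp5, a maternal effect gene of the oocyte, had 3 probes at -0.02 to 0.20 in the first and 0.08 to 0.14 in the second. Of the flanking probes shown only one, of Ceacam20, was called, at -0.59 (SE 0.167, adjusted p = 0.0497 in limma) for Zfy2 against Zfy1_hi.

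The rise of these receptors was set beside genes that vomeronasal neurons use. Of the neuron's markers, read by the brightest probe of each gene, Stmn2, Gap43 and Bcl11b were detected on 0 arrays. Omp, the olfactory marker protein, and Lhx2 were detected on 1 array each. Trpc2 had no probe under that symbol and could not be read. Others of the list are transcribed in these oocytes in every group, such as Meis2, Emx2, Tfap2e and Gnai2, each detected on all 18 arrays. The mean log2 level over the 13 markers on the array was 6.60 to 6.68 in Zfy2_Eif2s3y, 6.50 to 6.58 in Zfy2, 6.44 to 6.51 in Zfy1_hi, 6.52 to 6.60 in Zfy1_lo, 6.49 to 6.61 in Zfy2_nf and 6.50 to 6.58 in XX. In both comparisons 2 of the 9 kept genes of the list were higher and 1 lower by at least 1 probe. Emx2, a homeobox gene, was higher by 0.71 (SE 0.118) in the first comparison and by 1.11 (SE 0.137) in the second. The Zfy2_Eif2s3y mean was 8.42. Zfy2 stood at 7.47, Zfy1_hi at 6.36 and XX at 7.62. The XX arrays were in the other batch, so which group of the second comparison moved cannot be told. Gnai2 has 2 probes. The brighter differed by 0.68 (SE 0.137) in the first comparison, which was called, and by 0.40 (SE 0.158, adjusted p = 0.173 in limma) in the second, which was not. The other was called as higher in both (0.54, SE 0.141, and 0.76, SE 0.162). Meis2, another homeobox gene, was lower in both by each of its 2 kept probes, the brighter at -0.49 (SE 0.106) and -0.76 (SE 0.123).

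Of the 11 kept genes of vomeronasal signal transduction, 1 was called as higher in both comparisons, Gnai2, by 1 of its 2 probes. Ano2, a calcium-activated chloride channel, was lower in both (-0.89, SE 0.150, and -0.74, SE 0.174), and so was the phospholipase gene Plcb4 (as measured -1.41, SE 0.294, and -1.34, SE 0.339), which was detected on 1 of 3 Zfy2_Eif2s3y arrays and 2 of 3 Zfy2 arrays. Arrb2, an arrestin, was called as lower in the second comparison (-1.38, SE 0.313). The median change of the 12 kept probes of this list was 0.12 in the first comparison and -0.07 in the second, against -0.01 and 0.00 over all kept probes. Of the 5 kept genes for receptor trafficking 0 were called in either, and Rtp1 and Rtp2, chaperones of olfactory receptors, were detected on 1 array each. The pheromone ligand list had 2 kept genes and 0 calls.

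Markers of the cumulus and granulosa cells that surround the oocyte were also read. Of 11 on the array 8 were kept, and the mean log2 level over the brightest probe of all 11 was 5.32 to 6.09 in Zfy2_Eif2s3y, 5.35 to 5.41 in Zfy2, 5.50 to 5.62 in Zfy1_hi, 5.62 to 5.81 in Zfy1_lo, 5.59 to 5.73 in Zfy2_nf and 5.56 to 5.92 in XX. The Zfy2_Eif2s3y arrays read 6.09, 5.32 and 5.55, so the first stood above every other array. Over the 14 kept probes of the list the median difference was 0.33 in the first comparison and 0.12 in the second, against -0.01 and 0.00 over all kept probes. Fshr, the receptor of follicle stimulating hormone, was at 6.27 in Zfy2_Eif2s3y and 5.72 in the controls by its brightest probe, and Inhba, an activin subunit, at 6.51 and 5.94, and neither was called (adjusted p = 0.474 and 0.605 in limma). The called genes of the list were lower. Cyp11a1, which starts steroid synthesis from cholesterol, was lower in both comparisons by its brightest probe (-1.63, SE 0.211, and -1.68, SE 0.243), while its other 2 kept probes, at 0.33 and 0.62 in the first and 0.14 and -0.09 in the second, were not called. Ptgs2, a prostaglandin synthase, was detected on 0 Zfy2_Eif2s3y arrays and was at least 1.23-fold lower there than in the controls. By the brightest probe Ptx3 was detected on 0 arrays and Amh and Foxl2 on 2 each. Of the stroma and theca markers 4 of 8 genes were kept and of the blood markers 1 of 5, with 0 called in either comparison. Of the oocyte markers Figla alone was called in the first comparison, as lower (-0.68, SE 0.153), and 0 were called in the second. Without the Zfy2_Eif2s3y array with the high granulosa level, Vmn1r93 differed by 2.28, Vmn1r123 by 1.90 and Vmn1r243 by 1.71 as measured, and all 3 stayed called in limma.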

How the data were processed

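Intensities of 45281 bead probes on 18 arrays and a detection p-value of each probe on each array were deposited by the authors in a non-normalized table, per the file headers. GenomeStudio is named per the submitters' processing notes, and its settings are not given in the sources used here. A deposited series matrix of linear intensity, whose normalization is not stated, served as an alternative. The authors' probe sequences were not used here. Of the probes, 34885 had 1 gene symbol, 18 several and 10378 none, and symbols were updated through RefSeq's Entrez IDs.

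Intensities were background corrected and quantile normalized over 18 arrays with neqc of limma 3.58.1 in R 4.3.3 (offset 16), which took the background from the detection p-values since the table holds no control beads, and gave log2 values. Probes detected at p under 0.05 on 3 or more arrays were kept (23951). A limma model of 6 group means, without a block (12 residual degrees of freedom), gave 8 contrasts, two-sided and adjusted by Benjamini-Hochberg over all kept probes. The code was tested on simulated data. An array is a pool of oocytes, and the series' design text calls the pools biological replicates. The error of a call comes from limma's variance, moderated across probes. Replicates of a group correlated at r = 0.967 to 0.987. The number of arrays limits the precision.

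Replicate numbers did not pair the samples: deviations from the group means of arrays with the same number correlated at -0.15 to 0.19 (21 pairs) and of arrays with other numbers at -0.18 to 0.21. Every kept Vmn1r probe was named, probes detected on 2 arrays as just outside, some but not all of the called genes of the lists, defining markers, and the 5 genes most like each responder. The lists were vomeronasal neuron, signalling, receptor trafficking and ligand genes, receptor families, and oocyte, granulosa, stroma and blood markers. Members and lists were chosen with earlier results of these data known. Promoter windows were aligned globally with Biopython. Alternatives covered the filter, background correction, normalization, offset, variance trend, slide, position, batch, replicate block and each array left out.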

Additional observations from a re-analysis of the deposited data

How the results depend on the processing

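No alternative reversed a difference that was called. Some that were not called changed sign, such as the difference of effects for Vmn1r123 (0.26, down to -0.08). With an array left out, the Vmn1r123 difference between Zfy1_hi and XX ranged from -0.29 to 0.29. Over 14 alternatives each, Vmn1r93, Vmn1r123 and Vmn1r243 stayed higher in both within-batch comparisons of a Zfy2 transgene. For Zfy2_Eif2s3y they lay at 1.56 to 2.37, 1.61 to 1.97 and 0.70 to 1.60. For Zfy2 against Zfy1_hi they lay at 1.26 to 1.94, 1.40 to 1.77 and 0.34 to 0.99. All 3 stayed called in these, leaving aside slide 2 alone, where each other group had 1 array. With an array left out the counts were 3 in the first and 2 to 3 in the second, where the call of Vmn1r243 was lost in 3 of 6 such fits (adjusted p up to 0.0845 in limma). The counts across batches moved. Between Zfy2 and XX 11 probes were called without a filter, and 3 to 6 with an array left out, against 5. Between Zfy1_hi and XX 0 were called with the deposited series matrix, with quantile normalization alone, with an offset of 50 and with a variance trend, and 0 to 1 with an array left out. Of the Vmn1r probes 6 were detected at a p threshold of 0.01, 52 on 1 or more arrays and 7 on 6 or more arrays, and 13 to 18 with an array left out, against 18. The cause was not tested. With the replicate number as a block the counts were 3 for Zfy2_Eif2s3y against XX and Zfy2_nf, 3 for Zfy2 against Zfy1_hi, 6 for Zfy2 against XX and 1 for Zfy1_hi against XX. Signal over background limits the 15 faint kept probes, and the number of arrays limits all.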

Other observations

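Other receptor families of the nose held single probes that differed. Of the 7 kept Vmn2r probes, Vmn2r51 (0.76, SE 0.157) and Vmn2r42 (0.76, SE 0.194) were higher in Zfy2_Eif2s3y than in XX and Zfy2_nf, and 0 were called between Zfy2 and Zfy1_hi. Of 164 odorant receptor probes 1 was higher and 3 were lower in the first comparison, and 3 were higher and 1 lower in the second. Over all kept probes 9.14% were called in the first comparison and 5.66% in the second. Olfr461 was higher in both (as measured 1.75, SE 0.291, and 1.28, SE 0.336), though detected on 2 of 6 control arrays and 2 of 3 Zfy1_hi arrays, and Olfr214 lower in both (-1.43, SE 0.238, and -1.85, SE 0.275). Of the trace amine and taste receptor probes 0 were called in either.

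By Pearson correlation over the 18 arrays, a description since the arrays share genotypes and slides, the genes most like Vmn1r123 were Vmn1r93 (r = 0.966), Tlx1 (0.947), Sohlh2 (0.942), Gm5891 (0.938) and Gm4567 (0.937). Those most like Vmn1r93 were Vmn1r123 (0.966), Dmwd (0.940), Gm4836 (0.937), Gm5891 (0.933) and Hspb1 (0.931). Those most like Vmn1r243 were Dusp4 (0.954), Gldc (0.931), Csta2 (0.930), Dusp9 (0.903) and Vmn1r123 (0.886).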
